A study of Glycine max with 30 samples.

Results

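Dawn regions are stretches of the soybean genome that the study's peak lists held around dawn and did not hold around dusk. The 6 merged peak lists, one for each time point, were pooled, and regions that overlapped or touched were joined into 35922 union regions. The dawn regions were chosen by their presence in the merged lists of both ZT20 and ZT0 and their absence from those of both ZT8 and ZT12. The lists of ZT16 and ZT4 had no part in the choice. There were 456 dawn regions, 1.27% of the union regions (Wilson 95% interval 1.16 to 1.39%, which covers counting error only) and 4.91% (4.49 to 5.37%) of the 9281 union regions listed at both ZT20 and ZT0. The mirror choice, listed at ZT8 and ZT12 and at neither ZT20 nor ZT0, gave 2221 dusk regions, which serve as a comparison.

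The data came from first trifoliate leaves of Williams 82 (Ws82), the wild-type soybean cultivar of the study. Plants grew in short days of 8 h light and 16 h dark and were then kept in constant light, which all 18 libraries share. Leaves were taken every 4 h at 6 time points, called ZT0 to ZT20 in the labels and numbered one cycle later by the study, with 3 biological replicates (L, M and R) at each, 18 libraries in all. Sampling began at ZT0 and ended at ZT20, so these time points are the ends of a single series and lie next to different dawns. Statements across dawn below join these ends as if the cycle repeated. Time of day and time spent in constant light cannot be told apart. Whole leaves were used, so a change in the share of cells that open a region and a change within cells cannot be told apart. The series also holds 12 samples of Ws82 and of plants with mutated LHY or LUX clock genes, not analysed here.

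ATAC-seq uses the transposase Tn5, which inserts sequencing adapters where DNA is not wrapped tightly around nucleosomes, so a pile of fragments (a peak) marks open chromatin. In leaves, open regions of this kind include promoters and distal elements bound by transcription factors. The plant circadian clock keeps time in constant light through repressors that follow each other: LHY and its relative CCA1 act around dawn, the PRR proteins by day, and the evening complex, which contains LUX, around dusk. LHY and CCA1 are known from Arabidopsis to bind the evening element in promoters of evening genes, and LUX binds its own short site. ZT0 is dawn as the plants last knew it. The dark began 8 h later in the short days, so ZT8 and ZT12 lie at and after the former lights-off.

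The positions given below are on the Wm82.a2.v1 assembly, counted from 1. No genome sequence or gene annotation of that assembly was used here, so the genes and sequences beside the dawn regions are not described. Library lists held 7668 to 21804 peaks, and the lowest peak summits in them had 4 or 5 fragments. By the study's methods, reads were sampled down to a common depth before peaks were called. The most frequent background recovered from a list still ran from 0.39 fragments per base in ZT8 R to 0.784 in ZT12 R. Equal sensitivity of the libraries is therefore not shown. A region without a peak was not detected in that library rather than shown to be closed. The lists of ZT0 and ZT20 were the shortest of the 6 merged lists, with 13675 and 15405 regions, against 18794 at ZT4, 18559 at ZT8, 21022 at ZT12 and 19647 at ZT16.

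The choice cut a small piece out of a larger group. Of the union regions listed at both ZT20 and ZT0, 7399 were also listed at both ZT8 and ZT12, 833 at ZT12 but not ZT8, and 593 at ZT8 but not ZT12. Another 2201 regions without a dusk listing were in the ZT20 list but not that of ZT0, and 1576 were in the ZT0 list but not that of ZT20. These 4 groups of neighbours just outside the choice, those with 1 dusk listing or 1 dawn listing, were each larger than the dawn regions themselves.

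Library calls of the dawn regions changed over the day in a single trough. A library was taken to call a region if one of its peaks overlapped that region by at least 1 bp. At ZT0, 31.1% of the dawn regions were called in replicate L, 74.6% in M and 44.1% in R. At ZT4 the values were 35.3%, 25.9% and 37.9% in L, M and R, and at ZT8 they were 9.65%, 13.6% and 7.02%. Every ZT8 library thus lay below every ZT4 library, a drop that the choice makes likely because it required absence from the ZT8 list. At ZT12 the dawn regions were called in 7.46% (L), 18.9% (M) and 14.5% (R), at ZT16 in 35.7%, 45.8% and 21.9%, and at ZT20 in 75%, 43.6% and 36.4%. Every ZT0 and ZT20 library lay above every ZT8 and ZT12 library, as the choice of the regions makes likely, and no test was made on those time points. The spread among dawn replicates was wide: the means were 49.9 ± 22.3% at ZT0 and 51.7 ± 20.5% at ZT20 (SD, n = 3 each), because 1 library at each time point, ZT0 M and ZT20 L, called far more of the regions than the other 2.

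**Figure D1:**
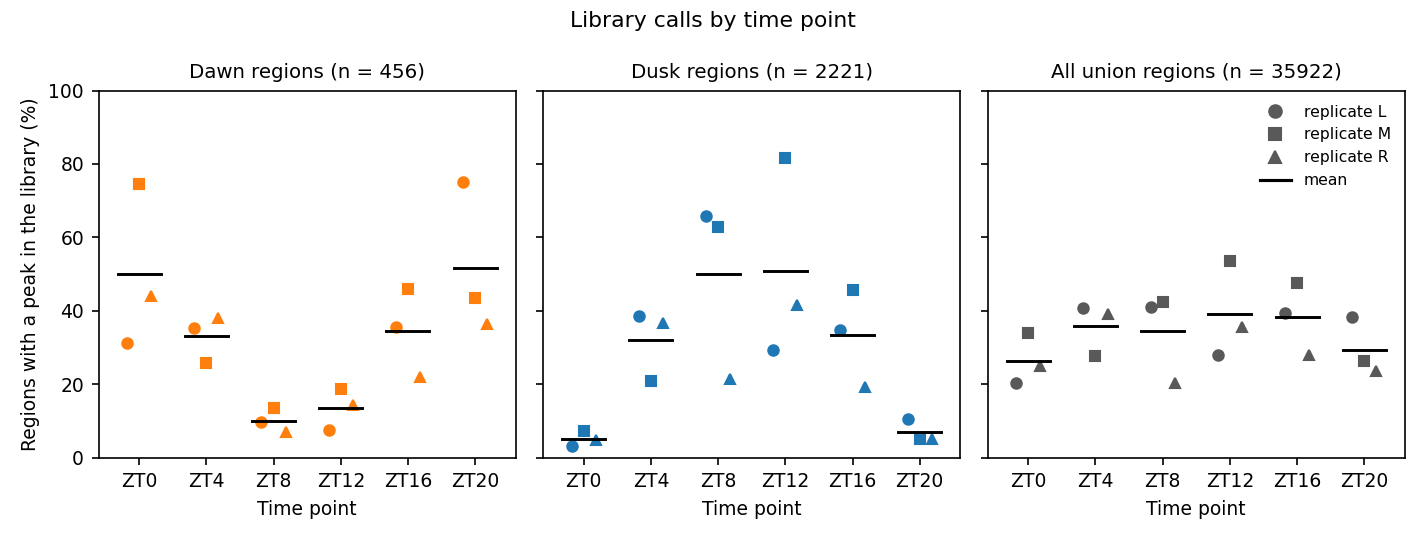
Percent of regions with a peak in each library (vertical axis) at the 6 time points (horizontal axis) for dawn regions, dusk regions and all union regions; symbols are replicates L, M and R and lines are means of 3. Dawn regions fall to between 7.02 and 18.9% in the ZT8 and ZT12 libraries, while ZT0 M and ZT20 L stand at 74.6 and 75%.

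The libraries differ in the number of peaks, so each percent was also divided by the percent of all union regions called in the same library. This relative call rate of dawn regions was 1.54, 2.2 and 1.77 in ZT0 L, M and R, and 1.96, 1.66 and 1.54 in ZT20 L, M and R. It was 0.236, 0.321 and 0.345 in ZT8 L, M and R, and 0.266, 0.352 and 0.407 in ZT12 L, M and R. Dawn regions were therefore called between 1.54 and 2.2 times as often as the average union region in the 6 dawn libraries. In the 6 dusk libraries they were called at 0.236 to 0.407 of that average. These values describe the choice, and the division does not fully take out list length. With the 7668 strongest peaks of each library, the rates were 1.42 to 1.58 in the dawn libraries and 0.240 to 0.361 in the dusk libraries. ZT0 M then fell from 2.2 to 1.58 and ZT20 L from 1.96 to 1.51.

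Support for single dawn regions was thin. By the study's methods, peaks found both in single replicates and in the merged reads of a time point were kept. Every dawn region had a peak in at least 1 library at ZT20 and at ZT0, so 2 dawn libraries was the lowest number. Of the 456, 194 (42.5%) had a peak in 2 of the 6 dawn libraries, 131 (28.7%) in 3, 75 (16.4%) in 4, 27 (5.92%) in 5 and 29 (6.36%) in all 6. Among dusk regions the shares in their own 6 libraries were 37.3% in 2, 34.8% in 3, 18% in 4, 7.97% in 5 and 1.98% in all 6. Thin support was thus not particular to dawn regions. At ZT20, 269 regions (59%) were called in 1 of 3 libraries, and in 177 of these that library was L. At ZT0, 285 (62.5%) were called in 1 of 3, and in 181 of these it was M. The same 2 libraries that raised the means above were thus the only witness at their time point for many members: 282 regions (61.8%) rested on ZT20 L alone at ZT20, on ZT0 M alone at ZT0, or on both. A peak in at least 2 libraries at ZT20 and also at ZT0 was found for 96 regions (21.1%).

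The absence at dusk was also a matter of degree. No dusk library had a peak on 303 of the dawn regions (66.4%, Wilson 95% interval 62.0 to 70.6%). The other 153 (33.6%) had a peak in at least 1 of the 6 dusk libraries although the merged lists of ZT8 and ZT12 did not hold them, against 78.5% of all union regions with such a peak. The choice used these time points, so the contrast of 33.6% with 78.5% carries no information about the members. Of the 153, 84 had a peak in 1 dusk library, 27 in 2, 18 in 3, and 24 (5.26%) in 4 or more. Among dusk regions, 1678 (75.6%) had no peak in any dawn library and 29 (1.31%) had peaks in 4 or more.

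**Figure D2:**
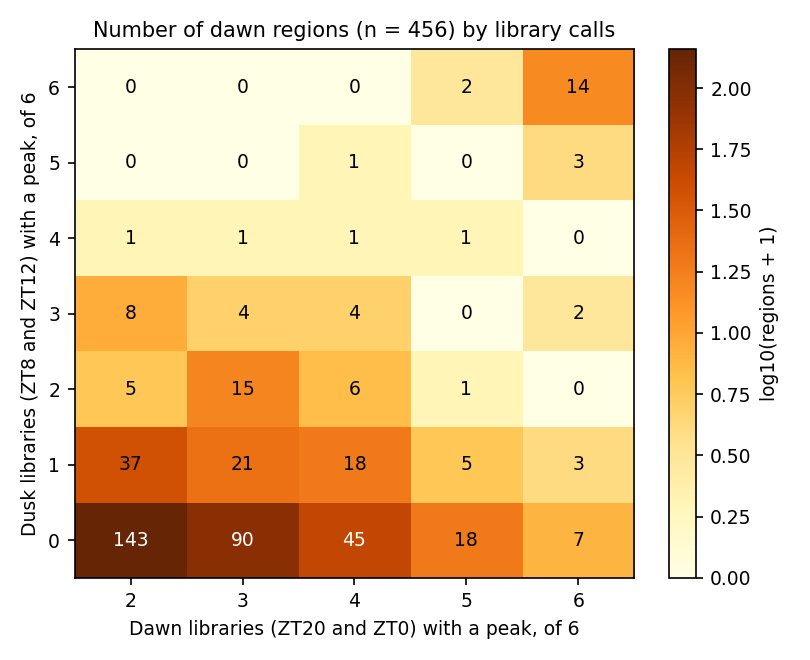
Number of dawn regions, printed in each cell, by how many of the 6 dawn libraries (horizontal axis) and of the 6 dusk libraries (vertical axis) had a peak; colour is log10 of the number plus 1. Most regions lie along the bottom and left, with 143 regions called in 2 dawn and 0 dusk libraries, and 14 regions stand apart in the corner called in all 12.

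The strictest form of the pattern, a peak in all 6 dawn libraries and in no dusk library, was met by 7 dawn regions (1.54%). Over all union regions it was met by 9, or 0.0251%, and the other 2 were listed at neither ZT8 nor ZT12 and missed a dawn listing. The choice used this contrast, so the 2 shares are given side by side only. The number moved with list length: with the 7668 strongest peaks of each library, 1 dawn region met the condition, and without ZT0 L, ZT0 R or ZT20 M the count was 11 in each case.

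These 7 regions, with 5 more that follow in the order of dawn calls minus dusk calls, are the far end of that order, and most dawn regions had less support. The heights below are whole fragments at the summit of the peak, recovered from the fold and p-value that the peak caller gave. They are not scaled between libraries. The rank of a peak is given as its upper percentile, its place among the peaks of the same library ordered from the highest −log10 q. Peaks tied in −log10 q share the midpoint of the places they fill. Values near 0 mark the strongest peaks of a list.

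The strongest of the 7 was a region of 587 bp on chromosome 13 (chr13:32852634-32853220). Its summits held 16, 22 and 21 fragments in ZT20 L, M and R and 16, 27 and 20 fragments in ZT0 L, M and R. It ranked on average at the upper 19.1 percentile of the dawn lists. On either side of dawn it was seen less widely, with 12 fragments in ZT16 L and in both ZT4 L and ZT4 R, and no peak in ZT16 M, ZT16 R or ZT4 M.

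A region of 2271 bp on chromosome 18 (chr18:2857844-2860114) was called in 12 of 18 libraries, all those outside ZT8 and ZT12. Summits held 35, 33 and 36 fragments in ZT20 L, M and R and 16, 15 and 18 fragments in ZT0 L, M and R. ZT16 had 48, 43 and 30 fragments in L, M and R, and ZT4 had 28, 18 and 25. The highest counts of this region therefore lay at ZT16 and ZT20 in all replicates, before dawn, although heights in different libraries share no common scale.

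Another region, of 998 bp on chromosome 3 (chr3:33054940-33055937), was called in 3 ZT16 and 2 ZT4 libraries beside the 6 dawn libraries. One of 745 bp on chromosome 11 (chr11:33982674-33983418) was called in 2 ZT16 and 3 ZT4 libraries. Both were open by this measure at ZT16, ZT20, ZT0 and ZT4, and missed 1 library each.

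Another pair of regions pointed to opposite sides of dawn. On chromosome 12, a region of 662 bp (chr12:11748862-11749523) had 14, 22 and 13 fragments in ZT16 L, M and R and no peak at ZT4, beside 12, 16 and 20 fragments in ZT20 L, M and R and 15, 15 and 19 in ZT0 L, M and R. On chromosome 10, a region of 827 bp (chr10:1537621-1538447) had no peak at ZT16 and 12, 10 and 12 fragments in ZT4 L, M and R, beside 15, 12 and 11 fragments in ZT20 L, M and R and 12, 11 and 9 in ZT0 L, M and R. The chromosome 12 region was thus called at ZT16, ZT20 and ZT0 and the chromosome 10 region at ZT20, ZT0 and ZT4. Neither order was sampled as a continuous series, as ZT0 came first and ZT20 last. The last of the 7, of 675 bp on chromosome 15 (chr15:25784940-25785614), was the weakest, with 5 to 10 fragments at its dawn summits and a mean rank at the upper 73.8 percentile, and it was called in 1 ZT16 and 3 ZT4 libraries.

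The next 5 regions lacked 1 dawn library each and had no dusk peak. A region of 594 bp on chromosome 8 (chr8:20475428-20476021) and one of 489 bp on chromosome 19 (chr19:542789-543277) were also called on both sides of dawn, the first in 2 ZT16 and 2 ZT4 libraries and the other in 2 ZT16 and 3 ZT4 libraries. A region of 1067 bp on chromosome 16 (chr16:1404185-1405251) was called in 0 ZT16 and 2 ZT4 libraries, and one of 1073 bp on chromosome 8 (chr8:17451976-17453048) in 2 ZT16 and 0 ZT4 libraries. The narrowest window belonged to a region of 1427 bp on chromosome 3 (chr3:44396915-44398341), which had no peak in any ZT16, ZT4, ZT8 or ZT12 library. It had 26, 32 and 24 fragments in ZT0 L, M and R and 14 and 8 fragments in ZT20 M and R, with no peak in ZT20 L.

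**Figure D3:**
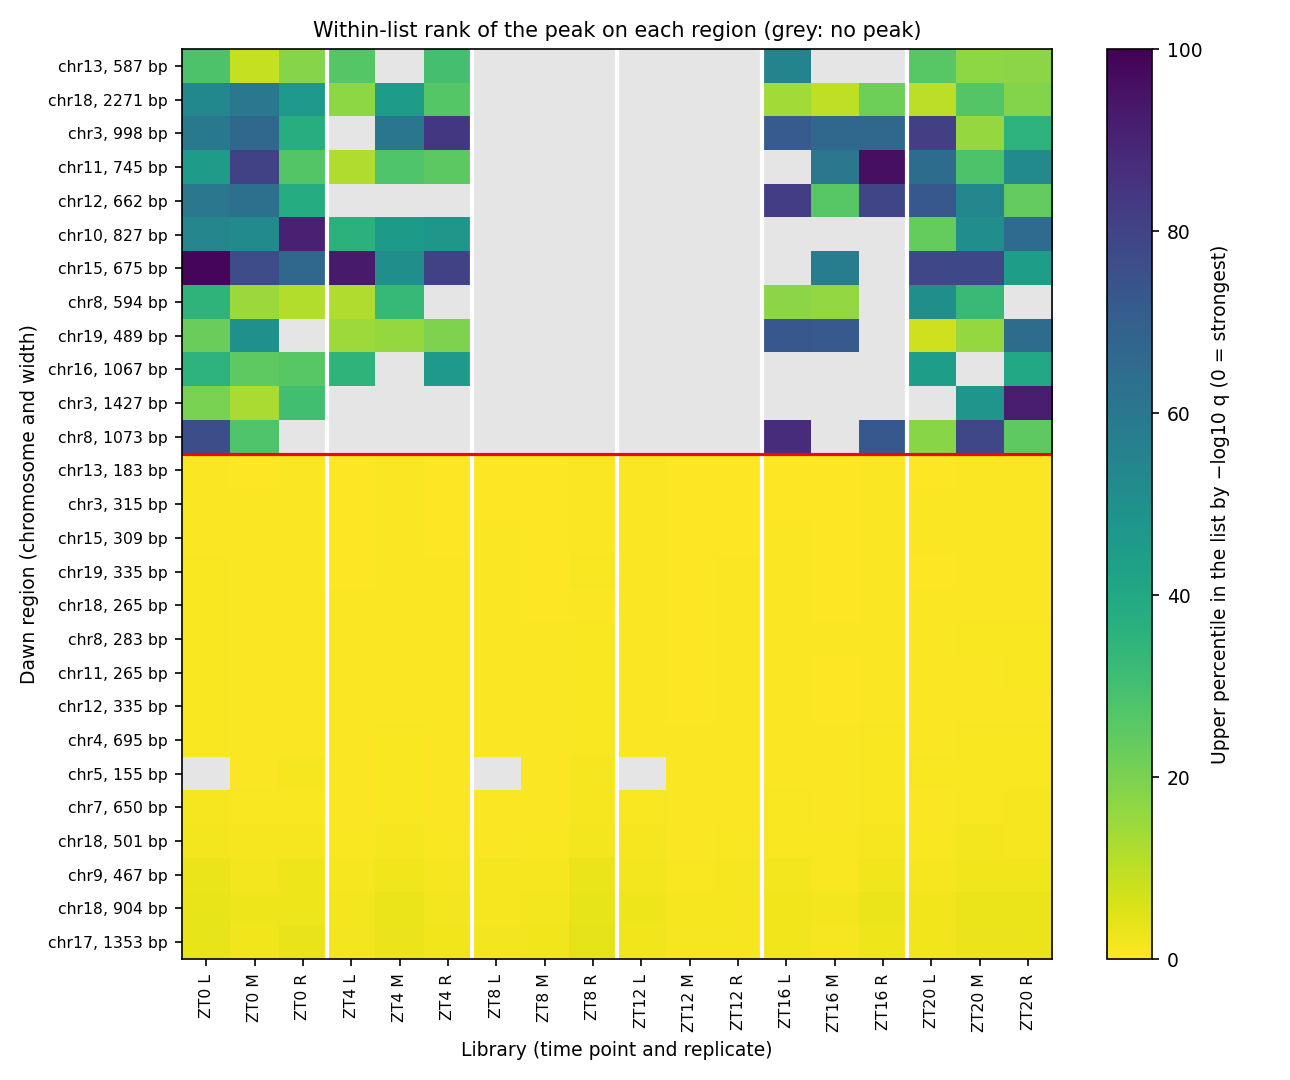
Rank of the peak on each region (rows, named by chromosome and width) in each of the 18 libraries (columns, by time point and replicate); colour is the upper percentile in the library's list, 0 being the strongest, and grey means no peak. Above the red line the 12 regions named in the text have no peak in any ZT8 or ZT12 library; below it, 15 dawn regions with peaks in 4 or more dusk libraries rank near the top of the lists at every time point.

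Some dawn regions went against the name. Of the 24 with peaks in 4 or more dusk libraries, 15 ranked among the strongest 5% of peaks at dawn and at dusk alike, with mean upper percentiles of 0.492 to 2.89 in the dawn lists and 0.364 to 2.13 in the dusk lists. They were set apart by rank at dawn and at dusk, so high ranks at both follow from the split. Their median fold over background was 39.3 in dawn libraries (range 3.74 to 63.9) and 39.7 in dusk libraries (range 3.81 to 62.9). In 14 of the 15 the dawn and dusk summits lay within 100 bp of each other. Of the 15, 14 had a peak in all 18 libraries, and 12 were in the merged list of neither ZT16 nor ZT4. By library calls these regions were open at all times, and calling them unlisted around dusk is true of the merged lists only. Examples are a region of 183 bp on chromosome 13 (chr13:37139436-37139618), one of 315 bp on chromosome 3 (chr3:25552055-25552369), and 2 regions on chromosome 18 that lie 1981 bp apart (chr18:33816779-33817682 and chr18:33819664-33820164). The study's methods describe a removal of the highest signals from its regions and reads that keep up to 10 alignments, and the part of either in these 15 regions was not tested.

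The 9 other regions with peaks in 4 or more dusk libraries were set apart by rank, so their lower ranks follow from the split. They ranked between the upper 23.5 and 67.5 percentiles at dusk and were wide, with a median of 1304 bp against 335 bp for the 15. Dawn and dusk summits lay within 100 bp of each other in 4 of the 9, and the median distance between them was 103.5 bp. Width limits how far apart summits can lie, and the comparison with the 15 did not hold width equal. Most dawn regions ranked lower than the 15. The median over the 456 of the mean dawn rank was the upper 63.7 percentile (quartiles 52.0 and 74.9), and 22 regions ranked on average among the strongest 5% at dawn. Median summits of the dawn regions held 7 to 10 fragments in the 18 libraries, against 7 to 11 for all peaks of the same libraries.

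The calls were also looked up one replicate letter at a time. By the study's methods, the merged lists drew on the merged reads and on the single replicates, the left-out libraries included. The values below are therefore not independent of the choice and are a description only. Regions called in both of 2 replicate letters at ZT20 and ZT0 and in neither at ZT8 and ZT12 were looked up in the third letter. With all peaks this gave 34, 40 and 28 regions when L, M and R were left out. The left-out dawn libraries called 46.4 to 92.5% of them (mean 69.1%, 6 libraries), and the left-out dusk libraries 7.14 to 52.5% (mean 26.6%, 6 libraries). Those ranges overlapped, the dusk end being set by ZT12 M, the longest list, which called 52.5% of these regions and 53.6% of all union regions. Of all union regions, the 6 dawn libraries called 20.3 to 38.3% and the 6 dusk libraries 20.3 to 53.6%. With the 7668 strongest peaks of every library the number was 69, 49 and 57 regions, of which left-out dawn libraries called 61.2 to 71.4% (mean 64.8%) and left-out dusk libraries 15.8 to 29.0% (mean 22.1%). Of all union regions, the same dawn libraries called 20.3 to 20.9% and the same dusk libraries 19.6 to 21.0%. ZT16 and ZT4 libraries called means of 41.7% and 45.2% of the chosen regions. Of all union regions they called 20.9 to 21.0% and 20.5 to 21.0%. The 3 sets of regions can share members.

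**Figure D4:**
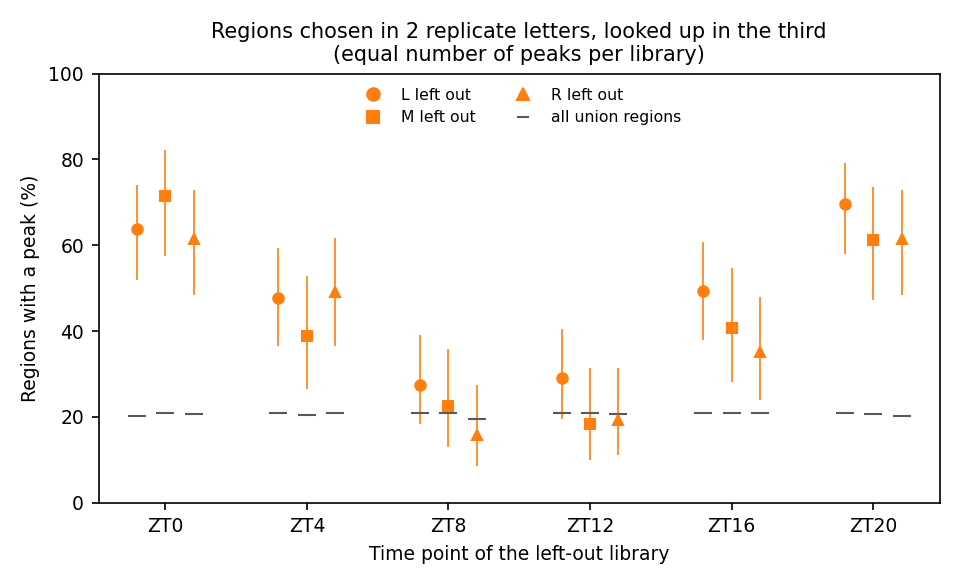
Percent of regions (vertical axis) with a peak in the replicate letter whose library calls were not used to choose them, by time point (horizontal axis), with the 7668 strongest peaks of every library; bars are Wilson 95% intervals and grey dashes are all union regions. Left-out ZT0 and ZT20 libraries lie between 61.2 and 71.4%, and left-out ZT8 and ZT12 libraries between 15.8 and 29.0%.

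On a cycle taken to repeat, ZT16 and ZT4 lie equally far from the middle of the dawn interval. Both were free of the choice, and the question was whether dawn regions lean to the side before dawn or after it. Of the 456, 222 (48.7%, 44.1 to 53.3%) were in the merged list of ZT16 and 208 (45.6%, 41.1 to 50.2%) in that of ZT4, against 54.3% and 51.9% of all union regions. Both lists held 123 dawn regions (27%), ZT16 alone 99 (21.7%), ZT4 alone 85 (18.6%) and neither 149 (32.7%). More ZT16 than ZT4 library peaks were found on 139 dawn regions (30.5%), against 28.6% of all union regions and 37.7% of those in 2 to 4 lists. More ZT4 than ZT16 library peaks were found on 125 (27.4%), against 23.1% and 30.3%.

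Over libraries the difference in call rate was no larger than the spread between replicates. The relative call rate of dawn regions was 0.907, 0.965 and 0.781 in ZT16 L, M and R and 0.863, 0.936 and 0.970 in ZT4 L, M and R. The means were 0.884 ± 0.0944 at ZT16 and 0.923 ± 0.0546 at ZT4 (SD, n = 3 each), a difference of −0.0392 (ZT16 minus ZT4, two-sided exact permutation p = 0.6, adjusted p = 0.9 over 3 tests). The values of the 2 time points overlapped, and dawn regions were called slightly less often than the average union region at both. That average includes regions listed at all time points. Of regions in 2 to 4 lists, ZT16 L, M and R called 34.9%, 46.8% and 19.2%, against 35.7%, 45.8% and 21.9% of dawn regions. In ZT4 L, M and R the shares were 36.4%, 19.6% and 34.4%, against 35.3%, 25.9% and 37.9%. Beside these regions, dawn regions were called less often in ZT16 M and ZT4 L and more often in the other libraries. With 3 against 3 libraries the smallest p that the test allows is 0.1.

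The same comparison was made against the dusk regions, so that list length enters on both sides. The log2 ratio of the percent of dawn regions called to the percent of dusk regions called was 0.04, 0.00 and 0.18 in ZT16 L, M and R and −0.13, 0.31 and 0.04 in ZT4 L, M and R. Its means were 0.07 ± 0.09 at ZT16 and 0.08 ± 0.22 at ZT4 (SD, n = 3 each), with a two-sided exact permutation p = 0.9 (adjusted p = 0.9). The values of the 2 time points overlapped, and with all peaks the mean ratio was near 0 at both.

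The ranks of the peaks on dawn regions were compared last. The median upper percentile of the called dawn regions was 62.3, 56.1 and 64.8 in ZT16 L, M and R, against 53.9, 51.3 and 56.8 in ZT4 L, M and R. The means of 61.1 ± 4.51 at ZT16 and 54.0 ± 2.74 at ZT4 (SD, n = 3 each) differed by 7.07, with a two-sided exact permutation p = 0.2 (adjusted p = 0.6), and ZT16 M lay within the range of the ZT4 libraries.

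With an equal number of peaks the call rates moved apart. Taking the 7668 strongest peaks of each list, the relative call rate was 0.574, 0.640 and 0.673 in ZT16 L, M and R and 0.700, 0.814 and 0.762 in ZT4 L, M and R. All ZT4 libraries were then above all ZT16 libraries, and the two-sided exact permutation p of 0.1 is the smallest the design allows and does not pass the threshold of 0.05. The difference was −0.130, against −0.0392 with all peaks. The log2 ratio to dusk regions was 0.26, 0.49 and 0.36 in ZT16 L, M and R and 0.46, 0.53 and 0.41 in ZT4 L, M and R, above 0 in all 6 libraries and overlapping between the time points (exact permutation p = 0.3). The difference in rank was 1.12, against 7.07 in the full lists of unequal length (exact permutation p = 0.8). The sign of the log2 ratio depended on the regions taken. Over dawn regions without a dusk peak and dusk regions without a dawn peak, it was −0.34, −0.27 and 0.10 in ZT16 L, M and R. In ZT4 L, M and R it was 0.37, 0.28 and 0.14. That restriction was chosen after seeing the data.

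**Figure D5:**
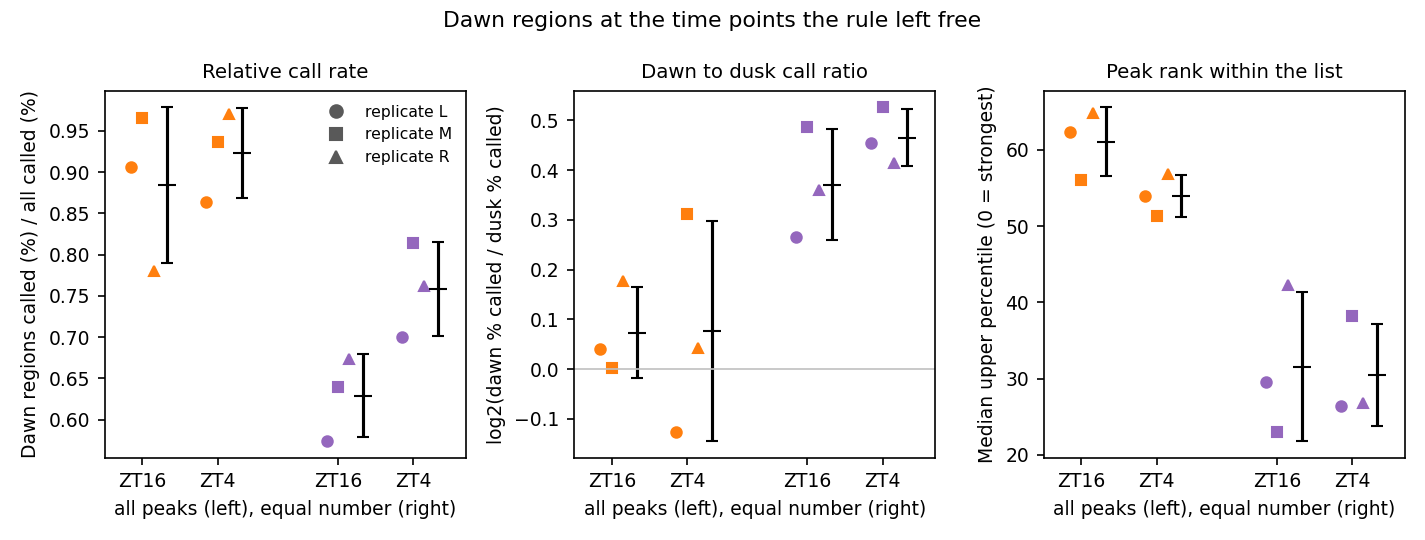
Relative call rate, log2 ratio of dawn to dusk regions called, and median upper percentile of dawn regions (vertical axes) in the 3 ZT16 and the 3 ZT4 libraries, with all peaks (orange) and with the 7668 strongest peaks of each library (purple); symbols are replicates, and bars are means with SD. With all peaks the libraries of the 2 time points overlap in each panel, and with equal numbers the relative call rates separate, at 0.574 to 0.673 for ZT16 and 0.700 to 0.814 for ZT4.

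Few single regions were all-or-none between the free time points. Peaks in all 3 ZT16 libraries and no ZT4 library were found on 8 dawn regions (1.75%), against 0.791% of all union regions and 1.67% of the 12575 union regions in 2 to 4 merged lists. The opposite, all 3 ZT4 libraries and no ZT16 library, was found on 9 (1.97%), against 0.612% of all union regions and 1.42% of those in 2 to 4 lists. Of the 284 union regions that met the first condition 210 were in 2 to 4 lists, and of the 220 that met the other 179 were, so the regions in 2 to 4 lists are the nearer background, and beside it neither count stood out. In 3 against 3 libraries a single region cannot reach an exact p under 0.1. Leaving out a library eases the condition for every region. Without ZT16 R the ZT16 count was 29, beside 3.05% of all union regions, and without ZT16 L it was 13, beside 1.64%. Without ZT4 M the ZT4 count was 24, beside 2.23%, and without ZT4 L it was 16, beside 1.18%.

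The dawn regions differed among themselves in how far their calls reached into the neighbouring time points. No peak at ZT16 or ZT4 was found on 100 regions (21.9%), against 24% of all union regions, 11.7% of regions in 2 to 4 lists and 19.4% of dusk regions. Peaks in all 6 of these libraries were found on 27 (5.92%), against 12.9% of all union regions, 1.84% of regions in 2 to 4 lists and 1.71% of dusk regions. The dawn share thus lay below that of all union regions in both cases and above the other 2 shares, and nothing particular to dawn regions is read from it. Of these 27, 15 were the high-ranking regions with dusk peaks described above. Regions with broad dawn support reached further. Among those without a dusk peak, the 143 called in 2 dawn libraries had a peak in 0.636 ± 0.860 ZT16 and 0.622 ± 0.767 ZT4 libraries (mean ± SD over regions), and the 7 called in 6 dawn libraries in 1.86 ± 1.21 ZT16 and 2.29 ± 1.11 ZT4 libraries. Of the 70 regions with at least 4 dawn libraries and no dusk peak, 16 had more ZT16 than ZT4 peaks, 22 had more ZT4 than ZT16 peaks, 17 had equal numbers and 15 had neither. These are 22.9% with more ZT16 and 31.4% with more ZT4 peaks, against 28.6% and 23.1% of all union regions. In regions of 2 to 4 lists, the nearer background, the shares were 37.7% and 30.3%, so the ZT4 share did not stand out. Height was not held equal in this comparison.

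The positions of the peaks within a region were compared between time points. Merged regions of ZT20 and ZT0 overlapped in 452 of the 456 dawn regions (99.1%) and shared a median of 68.8% of their joined length. The median distance between ZT20 and ZT0 summits was 59 bp, with 66.9% within 100 bp, against 67 bp and 63.4% in union regions of 2 to 4 lists. ZT16 summits lay a median of 49.5 bp from dawn summits (274 regions) and ZT4 summits 40 bp (259 regions), against 55 and 56 bp in union regions of 2 to 4 lists. Within 100 bp lay 75.2% and 76.8% of them, against 70.1% and 69.6%. In the dawn regions that had a dusk peak, dusk summits lay a median of 60 bp from the dawn summits, with 68.0% within 100 bp (153 regions), against 53.5 bp and 70.9% in union regions of 2 to 4 lists.

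Dawn regions had a median width of 428 bp (quartiles 322 and 590.5, range 150 to 2278 bp) and covered 230 kb together. Wide regions of at least 1000 bp made up 6.14% of them (28 regions), against 3.2% of all union regions. The share was 2.16% of dusk regions and 2.45% of regions in 2 to 4 lists. Dawn regions were found on all 20 chromosomes, where they were between 0.732% of the union regions on chromosome 20 (11 regions) and 1.91% on chromosome 2 (41 regions). In the outer 25% at either end of a chromosome lay 74.1% (69.9 to 77.9%) of the dawn regions. The shares were 76.9% of dusk regions and 73.3% of all union regions. The interval of the dawn regions held both, but it covers counting error only and takes regions as independent. The nearest other union region was a median of 2.68 kb away, against 4.86 kb for dusk regions and 4.50 kb for all union regions. That neighbour was itself a dawn region for 11 (2.41%), against 1.4% over all union regions.

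There were 10 pairs of dawn regions within 10 kb of each other. On chromosome 15, 2 regions 476 bp apart (chr15:23634254-23634834 and chr15:23635311-23635869) were each called in 5 dawn libraries and no dusk library. On chromosome 11, the all-or-none region described above had a second dawn region 1059 bp before it (chr11:33981215-33981614), called in 3 dawn libraries and no dusk library. On chromosome 2, regions 687 bp apart (chr2:42524486-42524861 and chr2:42525549-42525792) were called in 6 dawn and 1 dusk, and in 3 dawn and 0 dusk libraries. In 7 of the 10 pairs neither region had a peak in any dusk library. Of all dawn regions 66.4% had no such peak, and the choice used these time points. Nothing particular to the pairs is read from the count.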

How the data were processed

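The 18 ATAC-seq libraries were grouped by the time point in their labels, 3 at each of 6 time points. The authors trimmed reads with Trimmomatic (version 0.39), aligned them with Bowtie2 (version 2.2.9) to Wm82.a2.v1 keeping as many as 10 alignments of a read pair, and ran the peak caller MACS2 (version 2.2.6) on whole fragments, per library after sampling to a common depth and on the merged reads of each time point. Reads from repeats can therefore count at several places. The deposited library lists give start, end and summit, a score, −log10 q-values, −log10 p-values and a ratio (fold over background). The authors' merged lists, filtered by them, give start and end only and have no replicates. Their methods state that peaks consistent between single replicates and merged reads were kept. All columns could be mapped to samples (0 were left out), and 0 library lists were identical.

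From these, union regions were formed by joining merged regions, and a region was called in a library by an overlap of 1 bp. Fold and −log10 p together fix the whole number of fragments at a summit, which met both values (within 0.01) for at least 99.9552% of peaks with a −log10 p under 50. Ranks by −log10 q were taken within a list. ZT16 and ZT4 libraries were compared by two-sided exact permutation tests (20 assignments) of 3 measures, adjusted by Benjamini-Hochberg. The calculation was tested on simulated data. Time points used by the choice were not tested.

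Alternative settings were lists cut to equal length (the 7668 strongest peaks, as in the shortest list), only the upper 50% of a list, only −log10 q values from 5 upwards, 50% overlap, no joining of touching regions, a replicate block, and each library left out. Named regions were the first 12 by dawn calls minus dusk calls, ties broken by mean rank at dawn. Regions near clock genes, motifs and sequences were not described, because no genome or annotation of this assembly was used. The members, measures and lists were chosen with earlier results of these data known. Replicate letters did not pair libraries: deviations of same-letter libraries from their time point's mean correlated at −0.0497 to 0.0713 over 45 pairs. Tools were statsmodels 0.14.6, scipy 1.17.1, pandas 2.3.3 and numpy 2.4.6 under Python 3.11.15, with matplotlib 3.10.9 for plots.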

Additional observations from a re-analysis of the deposited data

How the results depend on the processing

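The number of dawn regions was 543 when a list had to cover 50% of the region, 303 when library peaks at ZT8 or ZT12 were also barred, and 55 when library lists alone decided (at least 2 of 3 libraries at each dawn time point and none at dusk), of which 47 were dawn regions. The 7 regions called in all 6 dawn and no dusk libraries became 1 with equal peaks (the 7668 strongest of every list), 1 with −log10 q from 5 upwards, 1 with the upper 50% of each list and 0 with 50% overlap, and leaving out single libraries gave 7 to 11. Regions in 3 of 3 ZT16 and no ZT4 libraries numbered 3 with equal peaks (beside 0.426% of all union regions), 2 with 50% overlap (0.621%) and 9 to 29 with a library left out (1.05 to 3.05%), and the opposite count was 5 (0.47%), 4 (0.34%) and 9 to 24 (0.718 to 2.23%). The share in the outer part of a chromosome was 39% for the outer 10% and 86.8% for the outer 33%, as these windows are narrower and wider.

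The comparison of ZT16 with ZT4 cannot give a p under 0.1, so no alternative could pass 0.05. The difference in rank was −1.33 in the upper 50% of each list. Leaving out 1 library gave differences of −0.0797 to 0.0126 in the relative call rate, −0.10 to 0.12 in the log2 ratio to dusk regions and 5.20 to 9.58 in rank. The sign of the call rate turned without ZT16 R (0.0126), and that of the log2 ratio without ZT16 L (0.01), ZT16 M (0.03) or ZT4 M (0.12). The cause was not tested. With a replicate block, pairing libraries by letter, the differences of −0.0392, −0.00288 and 7.07 had exact permutation p-values of 1, 1 and 0.25, the last being the smallest the block allows.

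Restricting to dawn regions without dusk peaks and dusk regions without dawn peaks was chosen after seeing the data. With all peaks the relative call rates differed by −0.0896 and the log2 ratios by −0.08. With equal peaks the differences were −0.213 and −0.43, and the 3 ZT16 libraries lay below the 3 ZT4 libraries in both measures (exact permutation p = 0.1, the smallest possible). Calls rest on as few as 4 fragments, which limits what a missing peak can say.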

Other observations

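Among the dawn regions without a dusk peak and with lists of equal length (7668 peaks), the relative call rate was 0.298, 0.300 and 0.443 in ZT16 L, M and R and 0.551, 0.596 and 0.534 in ZT4 L, M and R. The log2 ratio of dawn to dusk regions called, over dusk regions without a dawn peak, was −0.34, −0.27 and 0.10 in ZT16 L, M and R and 0.37, 0.28 and 0.14 in ZT4 L, M and R. In both measures the 3 ZT16 libraries were below the 3 ZT4 libraries, in a comparison chosen after seeing the data that cannot give a p under 0.1.

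Of the 2275 union regions with a peak in all 18 libraries, 14 were dawn regions and 0 were dusk regions. All 14 are among the high-ranking regions described above.

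The 8 dawn regions called in all ZT16 and no ZT4 libraries and the 9 called in all ZT4 and no ZT16 libraries each included 1 region that was all-or-none between dawn and dusk, on chromosome 12 (chr12:11748862-11749523) and on chromosome 10 (chr10:1537621-1538447).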
